A study of Homo sapiens with 4 samples.

Results

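The clustered protocadherins of human chromosome 5 are described here through the m6A-enriched intervals listed in their 3 gene clusters. Members were all intervals of the 2 deposited lists on the plus strand that overlapped the hg19 windows 140165 to 140392 kb (alpha cluster, PCDHA), 140430 to 140630 kb (beta cluster, PCDHB) or 140710 to 140893 kb (gamma cluster, PCDHG). This gave 32 of 24729 listed intervals, 22 of 11038 in one list and 10 of 13691 in the other. The clusters were chosen by position, and selected on an earlier result of these lists, the number of CSE intervals in the gamma cluster without overlap in the knockdown list, so the contrast between the lists is given as a description and is not tested.

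The cells were 16-HBE, an established human bronchial epithelial line. The condition called CSE was wild type by its genotype label and received 5% smoke extract of cigarettes for 24 h. The knockdown condition had the same exposure and an siRNA against METTL3, the catalytic subunit of the m6A writer complex. No unexposed cells and no control siRNA are named in the labels, so METTL3 reduction and siRNA transfection cannot be told apart. For each condition poly(A) RNA was precipitated with an m6A antibody and sequenced beside an input that was not precipitated (MeRIP-seq). The design text gives 3 replicates, but 1 list per condition was analysed, so no value below has a replicate spread, and each difference is one between these lists. The lists hold no expression values, so neither METTL3 levels nor epithelial markers could be checked, and less m6A cannot be told apart from less protocadherin RNA.

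Clustered protocadherins are adhesion proteins of the cadherin superfamily, best studied in neurons, where each cell uses its own set of them as an identity code. Each alpha or gamma gene has a large variable exon with its own promoter, which encodes the extracellular cadherin repeats, the membrane span and part of the cytoplasmic tail. It is spliced to 3 constant exons that all genes of the cluster share. Beta genes have the large exon alone. The gamma genes fall into A-type, B-type and C-type by the sequence of the variable exon. The mark itself, m6A, is deposited mainly where an adenosine lies in a short consensus, of which GGACT (in DNA letters) is a frequent form, and is common near stop codons and in long internal exons.

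The lists give positions and no genes, and the annotation used here (GENCODE release 29) is of another build, GRCh38. No position was carried between builds. Distances between intervals were set beside distances between annotated exons. The 2 short intervals of the gamma window were 59 and 89 nt long and their starts lay 10586 nt apart. GENCODE has 12 places where neighbouring exons have these lengths and 1 where they also have this distance, the constant exons 2 and 3 shared by 22 gamma genes. Measured from constant exon 2, each of the 17 wide gamma intervals of the CSE list lay on the variable exon of 1 gene, and 14 of them shared a start or an end with an annotated exon of that gene to the base. Starts were shared by 12 and ends by 5. The 3 without a shared border lay on PCDHGA6, PCDHGA8 and PCDHGA11. Genes of the alpha and beta clusters were named by the same distances, but no border was shared there, so these names rest on position alone.

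The constant exons show what a listed interval looks like when it is a whole exon. Sequences are those of GENCODE transcripts, 5′ to 3′ in DNA letters, with GGACT in capitals. The 59 nt interval (hg19, chr5:140874374-140874432) has the length of constant exon 2, which holds 1 GGACT, and the 89 nt interval (chr5:140884960-140885048) that of constant exon 3, which holds none.
constant exon 2: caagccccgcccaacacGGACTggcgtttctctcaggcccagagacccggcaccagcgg
constant exon 3: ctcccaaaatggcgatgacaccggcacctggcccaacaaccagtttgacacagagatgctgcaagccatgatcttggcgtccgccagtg
For a background, the longest transcript of each of 18026 protein-coding genes, of at least 1000 nt, was cut into adjoining windows. Of those of 59 nt 5.27% hold a GGACT, and of those of 89 nt 8.02%. Both exons were listed in both conditions.

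Variable exons of the gamma genes hold GGACT at related places, and the windows below, of 25 bases, show how members differ there. The capitals mark the GGACT or the 5 bases in its place, and positions in a substitution are counted from 1 at the first capital. A window 579 to 588 nt before the end of the variable exon held GGACT in 11 of 12 A-type genes. It is shown for genes listed only in CSE (PCDHGA1, PCDHGA11, PCDHGA9) and genes listed in both conditions (PCDHGA10, PCDHGB2).
PCDHGA1: cagcgagccgGGACTcttctcggtg
PCDHGA11: cagcgagccgGGACTcttcgcggtg
PCDHGA10: cagcgagccgGGACTcttcgcggtg
PCDHGA9: cagtgagccaGGGCTcttctcggtg
PCDHGB2: cagcgagcccGGGCTcttcagcctg
PCDHGA10 and PCDHGA11 are identical over this window although the first was listed in both conditions and the second in CSE alone. PCDHGA9 and PCDHGB2 carry the substitution A3G in the core. A second window, 167 to 185 nt before the exon end, held GGACT in 5 of 7 B-type genes, among them PCDHGB4 of both lists and PCDHGB3 and PCDHGB5 of the CSE list alone.
PCDHGB4: tacagcgaggGGACTttgccttatt
PCDHGB3: tacagcgaaaGGACTttgccttatt
PCDHGB5: tacagtcaggGGACTttgccttatt
PCDHGC3, which had the highest score in both lists among the members, had 6 GGACT in its variable exon, 1 of them 139 nt before the exon end. The 25 bases around that GGACT differ in 9 from the second window of PCDHGA1.
PCDHGC3: atctcaccacGGACTcccgccgcag
In the B-type window, GGACT was thus present in both CSE-only B-type genes and in 1 of the 3 listed in both conditions. PCDHGB2 and PCDHGB7 lack it there, and PCDHGB1 and PCDHGB6, listed in neither condition, hold it. In PCDHGB5 this GGACT lay 173 nt before the exon end, past the end of its listed interval. In the first window, farther from the end, GGACT was present in 9 of the 10 CSE-only A-type genes and in the A-type gene listed in both conditions. No listed B-type gene held it there, while PCDHGA12 and PCDHGB6, listed in neither condition, did. Over the whole variable exon, the 5 genes listed in both conditions held 2 to 6 GGACT (median 3, or 1.25 per kb) and the 12 listed in CSE alone 0 to 4 (median 3, or 1.17 per kb). The 5 gamma genes listed in neither condition held 1 to 5 (median 4, or 1.64 per kb). The median over the longest transcript of 18026 protein-coding genes was 0.925 per kb, and of transcript windows of 2430 nt 88.8% hold at least 1. PCDHGA9 was the gene with none.

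The gamma cluster carried most of the listed intervals and nearly all of the difference between conditions. It held 19 CSE intervals and 8 knockdown intervals. Of the 19, 12 had no overlap of at least 1 bp with the knockdown list, a share of 63.2% (Wilson 95% interval 41.0 to 80.9, which covers counting error only and treats neighbours as independent). The share over the whole CSE list was 19.9%. All 8 knockdown intervals overlapped the CSE list, beside 35.5% of the whole knockdown list that did not. The intervals covered 42.0 kb of the window in CSE and 13.5 kb with knockdown, and the 12 CSE-only ones made up 28.6 kb. Because this count was the reason for the choice of the cluster, nothing further is read from these shares.

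**Figure D1:**
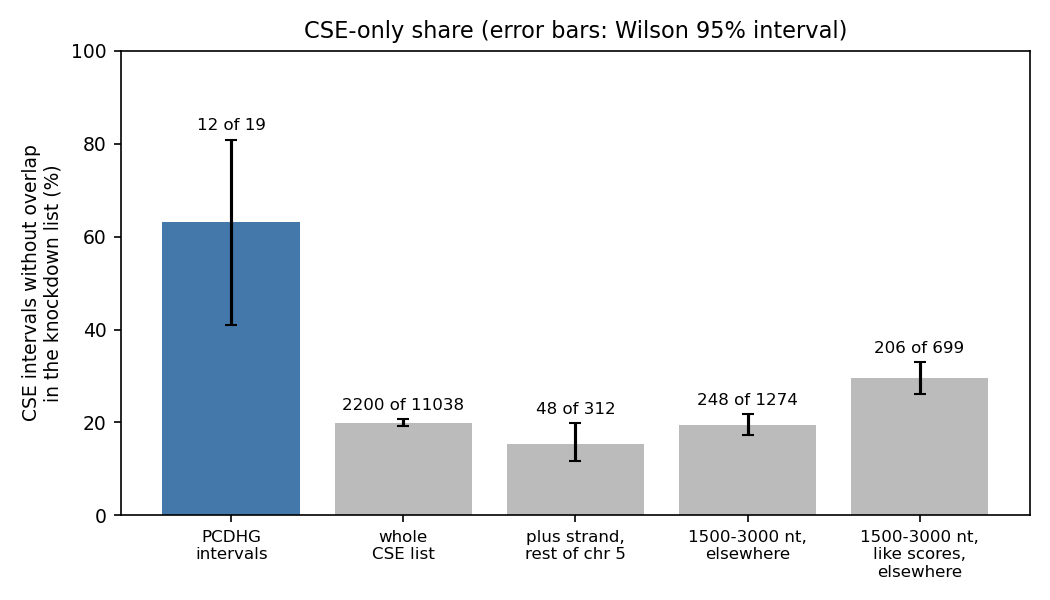
Percent of CSE intervals without overlap in the knockdown list (y axis) for the gamma cluster (blue) and 4 other sets of CSE intervals (grey), with Wilson 95% intervals as error bars and the counts above them. The gamma cluster, chosen on this count, stands at 12 of 19. The other sets run from 48 of 312 on the plus strand of the rest of chromosome 5 to 206 of 699. The last set holds intervals elsewhere of 1500 to 3000 nt with scores in the range of the 12 CSE-only gamma intervals. The 19 gamma intervals were not limited in this way.

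The same share in other sets of CSE intervals is given as a description only, since the gamma cluster was chosen on this count. CSE intervals of 1500 to 3000 nt outside the 3 windows were CSE-only in 19.5% of 1274 cases. Limited further to the scores that the 12 gamma intervals had, 55.5 to 516.5, the share was 29.5% of 699. On the plus strand of chromosome 5 outside the windows it was 15.4% of 312.

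Most of the CSE-only genes were A-type. Of 12 A-type genes, 11 had a CSE interval and 1 had a knockdown interval. Of 7 B-type genes, 5 had a CSE interval and 3 of these also had one with knockdown, and of 3 C-type genes PCDHGC3 was listed in both. The CSE-only genes were thus 10 of 11 listed A-type genes and 2 of 5 listed B-type genes. No interval was listed in either condition for PCDHGA12, PCDHGB1, PCDHGB6, PCDHGC4 and PCDHGC5. The grouping by type was made after the values were seen, and A-type intervals had the lower scores in the CSE list, with a median of 221.7 (55.5 to 510.2) beside 516.5 (167.1 to 918.3) for B-type intervals. The part of score in the split was not tested.

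**Figure D2:**
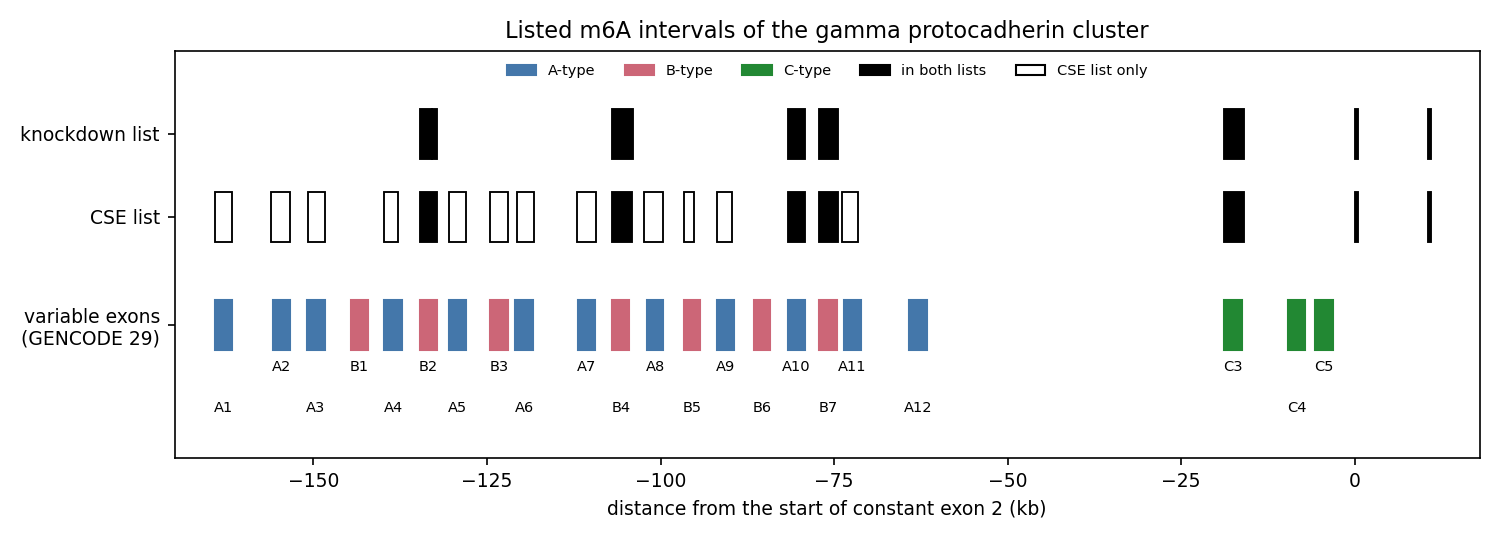
Position of listed intervals of the gamma cluster by distance from the start of constant exon 2 in kb (x axis), with annotated variable exons in the lowest row, the CSE list in the middle and the knockdown list on top. Filled boxes overlap the other list and open boxes are in the CSE list alone; the 12 open boxes lie on 10 A-type and 2 B-type exons, and filled boxes lie between them.

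Among the A-type genes, PCDHGA1 (hg19, chr5:140710252-140712723, 2472 nt) had the highest score, 510.2, and scored above 70.6% of the CSE list. It is the variable exon at the upstream end of the cluster, and its interval started at the annotated exon start. PCDHGA6 (140753651 to 140756107) scored 289.8, PCDHGA5 (140743898 to 140746339) scored 241.8 and PCDHGA2 (140718327 to 140721061) scored 233.6. All of these were absent from the knockdown list, and each scored above the median of the CSE list, 223.8. Of these, only PCDHGA1 scored above the median of CSE intervals of 1500 to 3000 nt, 400.55. PCDHGA7 (140762306 to 140765022) scored 221.7, PCDHGA8 (140771942 to 140774764) 170.3 and PCDHGA4 (140734592 to 140736628) 134.8. PCDHGA9 (140782520 to 140784614) scored 110.0, PCDHGA3 (140723601 to 140726090) 81.0 and PCDHGA11 (140800537 to 140802824) 55.5. PCDHGA11 lay close to the lowest score of the list, 50.02, and PCDHGA3 was above 17.8% of it. The 10 CSE-only A-type intervals thus spanned weak and middling scores. The A-type gene listed in both conditions, PCDHGA10, had a CSE interval of 2436 nt (140792743 to 140795178), identical at both ends to its annotated variable exon. It scored 262.4 there. The knockdown interval of PCDHGA10 ended 5 nt earlier and scored 182.3 in its own list. Scores are the authors' own, on a scale that is not stated, and were not compared between lists.

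Among the B-type genes, PCDHGB7 and PCDHGB2 had the highest CSE scores of the type. PCDHGB7 (140797214 to 140799996, 2783 nt) was listed with identical borders, and scored 918.3 in CSE and 416.6 with knockdown, each within its own list. PCDHGB2 was a single CSE interval of 2436 nt (140739703 to 140742138) that scored 834.0. In the knockdown list the same stretch was divided into 2 intervals of 1755 and 662 nt, 19 nt apart, with scores of 184.4 and 131.6 and with the outer borders unchanged. PCDHGB4 started at 140767452 in both lists, and its interval was 2747 nt long in CSE (score 333.1) and 2901 nt with knockdown (412.4). It was the only wide gamma interval that was longer with knockdown. PCDHGB5 (140777695 to 140779209) was CSE-only with a score of 516.5, and so was PCDHGB3 (140749831 to 140752406) with 167.1. PCDHGB5 scored above PCDHGB4 within the CSE list, while the 3 B-type genes of both lists had a median of 834.0 there and the 2 CSE-only ones 341.8. Its interval was also the shortest of the 17, at 1515 nt, and covered 63.2% of the variable exon.

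The C-type gene PCDHGC3 is the gamma gene nearest to the constant exons that was listed. Its interval (140855569 to 140858362, 2794 nt) had identical borders in both lists. Its score was 2057.4 in CSE, above 91.1% of that list, and 3182.6 with knockdown, above 99.8% of that one. A score of at least 3100 was reached by 660 of 11038 CSE intervals and 1170 of 13691 knockdown intervals. In the knockdown list most of these scored below PCDHGC3, so its rank there rests on a small step past 3100. The constant exon 2 scored 169.0 in CSE and 82.4 with knockdown, and constant exon 3 scored 90.2 and 177.0. Constant exon 2 stood above 41.9% of the CSE list and 15.3% of the knockdown list, and constant exon 3 above 21.2% and 37.6%. Since 22 genes share these exons, their intervals name no single gene. The last constant exon of gamma, 2035 nt in an annotated PCDHGA1 transcript, which carries the end of the reading frame, had no listed interval in either condition at its distance.

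**Figure D3:**
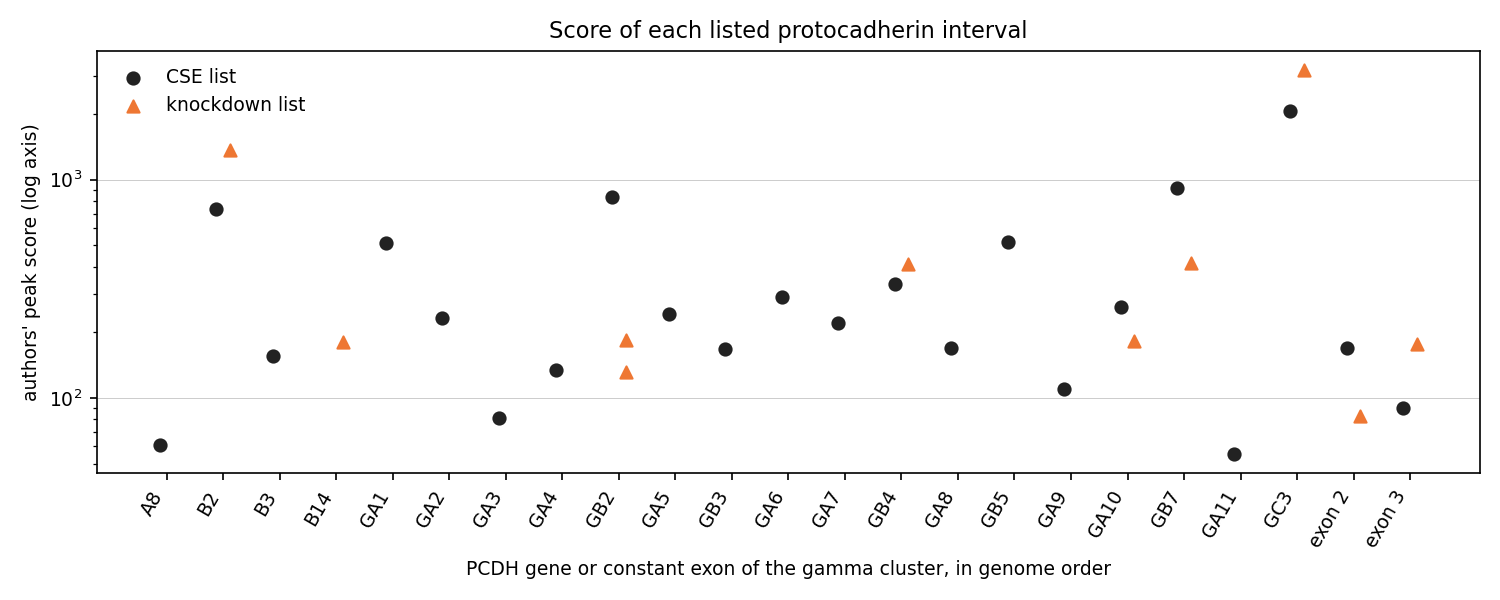
The authors' peak score (y axis, log scale) of every listed protocadherin interval, as circles for CSE and triangles for the knockdown list, by gene or constant exon in genome order. PCDHGC3 is highest in both lists, at 2057.4 and 3182.6, and 12 gamma genes have a circle without a triangle; the lists' scores are not on a scale known to be common.

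Borders of the wide gamma intervals followed exon structure. Of the 17 CSE intervals, 10 covered the annotated variable exon in full and the lowest coverage was 63.2%. The end of the interval lay past the splice site at the end of the variable exon in 11 cases, by 15 to 350 nt, at it in 1 and before it in 5. At PCDHGC3, PCDHGB7, PCDHGB3 and PCDHGA3 the interval ended past this splice site, at the end of another annotated exon of the gene. At PCDHGC3 and PCDHGB7 the start of the interval matched no annotated start. Whether transcripts with those exon ends were present in these cells was not tested.

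Related variable exons can share reads. The share of 50-base words of a variable exon that also occurred in a protein-coding transcript of another gene was 0% to 23.6% over the 22 gamma genes, with a median of 8.43%. It was highest for PCDHGB4 (23.6%), PCDHGB5 (20.4%) and PCDHGA3 (18.5%), and was 0% for PCDHGC3. The 5 genes listed in both conditions had a median of 11.6% and the 12 CSE-only genes one of 4.41%, with overlapping ranges (0% to 23.6% and 0% to 20.4%), and the part of shared sequence in the difference between lists was not tested. GC content was alike, with medians of 54.0% in either set. How reads that fit several places were counted is not stated by the labels or the lists.

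The names of the intervals carry a running number that rises with position along each chromosome, and most numbers are not listed. If these numbers count calls on both strands, the gaps limit how many unlisted calls the knockdown could have in the cluster. Between the same flanking intervals, on the minus strand 9.65 kb before and 12.9 kb after the gamma window, 30 numbers were used in CSE and 15 with knockdown, of which 19 and 8 were listed. Of all numbers up to the highest of each list, 22.1% were listed in CSE and 28.0% with knockdown. The 12 CSE-only intervals fell into 4 gaps of the knockdown list that held 5 unlisted numbers together. In the stretch from PCDHGA1 to PCDHGA4 there was 1 unlisted knockdown number for 4 CSE-only intervals, and from PCDHGA5 to PCDHGA7 there were 2 for 4. From PCDHGA8 to PCDHGA9 there was 1 for 3, and at PCDHGA11 1 for 1. With each number taken as 1 call, at least 7 of the 12 had no call with knockdown, listed or unlisted. The cluster was chosen on these 12, so this is a description, and the reason for their absence was not tested. Neighbouring intervals with identical borders in both lists bounded 7234 segments. The gamma segment from the minus-strand flank to PCDHGB7 used 22 numbers in CSE and 8 with knockdown, and 59 segments of any length, the gamma segment included, had a CSE excess at least as large. Among the 4350 segments of up to 100 kb it had the largest CSE excess, but it is itself 96.9 kb long, near that limit. The next largest CSE excess there was 12 and the largest knockdown excess 13. The gamma excess includes the intervals on which the cluster was chosen, so its rank is a description too.

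**Figure D4:**
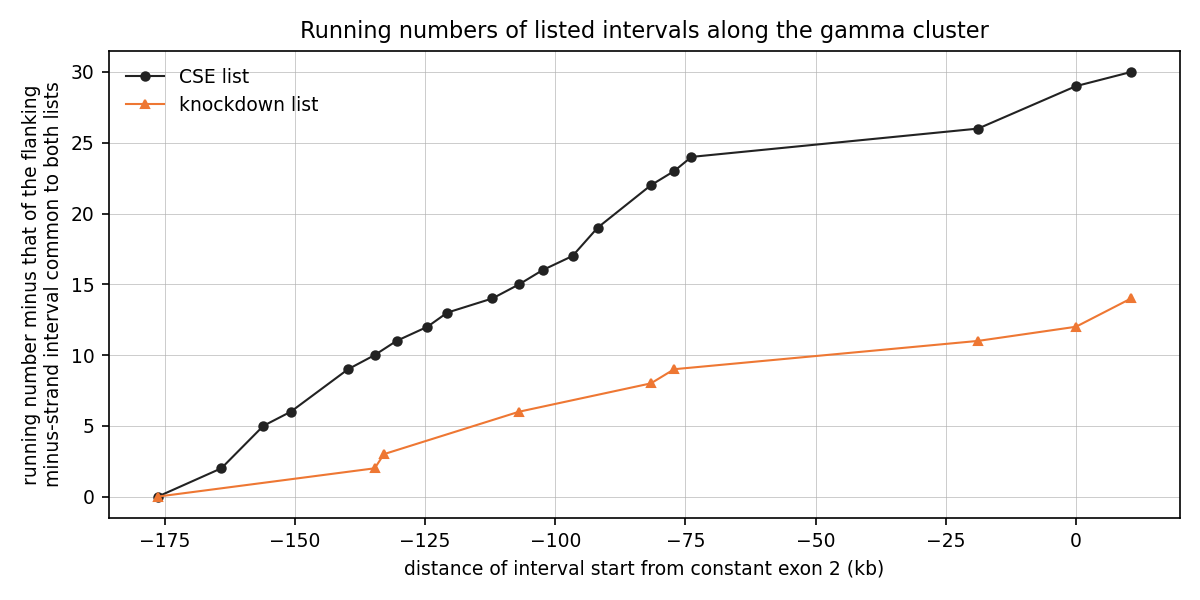
Running number of each listed gamma interval, counted from the flanking minus-strand interval common to both lists (y axis), against the distance of its start from constant exon 2 in kb (x axis). The CSE list (circles) reaches 30 at constant exon 3 and the knockdown list (triangles) 14.

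The beta cluster had 2 intervals in each list and no net loss. PCDHB2 had the strongest, 2774 nt in CSE (140474191 to 140476964, score 737.1) and 2771 nt with knockdown (score 1366.2), with the same start. A 679 nt interval on PCDHB3 (140482002 to 140482680, score 155.7) was listed in CSE alone. A 2671 nt interval on PCDHB14 (140602744 to 140605414, score 180.8) was listed with knockdown alone. It was the only knockdown-only interval in the 3 clusters. The annotation holds 16 beta genes, so 13 had no interval in either list. The intervals covered 3.45 kb in CSE and 5.44 kb with knockdown. Between PCDHB2 and the minus-strand flank of the gamma cluster there were 4 running numbers in CSE and 8 with knockdown, the opposite order to gamma, with 1 listed in each. An unlisted knockdown call at PCDHB3 remained possible, since 6 numbers between PCDHB2 and PCDHB14 were unlisted.

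The alpha cluster was almost empty. Of its 15 annotated genes, PCDHA8 had the single interval, 990 nt (140221150 to 140222139) in the CSE list, with a score of 60.8 that was above 7.6% of the list. It lay within the variable exon and 30.7% of the 50-base words of that exon occur in other genes, so the gene is uncertain. No alpha interval was listed with knockdown. Between the same flanking intervals, 80.8 kb before and 82.2 kb after the alpha window, 8 running numbers were used in CSE and 2 with knockdown. An unlisted knockdown call at PCDHA8 remained possible, since these 2 knockdown numbers were unlisted. Variable exons of the alpha genes held fewer GGACT, with a median of 0.418 per kb, than those of gamma (1.24) or the large exons of beta (0.839). Whether this bears on the number of listed intervals was not tested.

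The nearest listed plus-strand intervals outside the windows were the same in both lists. One lay 80.8 kb before the alpha window (140084011 to 140084156), with a score of 3100 in each list, a level that 660 CSE and 1170 knockdown intervals reached or passed. The other lay 469.9 kb after the gamma window (141362945 to 141363117), with scores of 238.4 and 287.6. Both overlapped the other list.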

How the data were processed

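The submitters' processing notes name HISAT2 2.0.4 and the build hg19. The authors deposited 1 peak list per condition, each line a position, a strand, a name and a score. These scores were set by the authors and reach down to 50.02. Their scale, the caller's settings and any pooling of replicates are not stated in the labels or files. Peak names start with MACS, per the deposited files. Read depths were not used here.

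Starts were counted from 1. Intervals overlapped when they shared at least 1 bp on the same strand. Shares carry Wilson 95% intervals (SciPy 1.17.1, Python 3.11.15). The overlap routine was tested on simulated data. Every interval in the windows is accounted for. The naming rule had allowed a match of length alone; only 1 wide CSE interval met it, so distances between intervals and between GENCODE exons were used, a choice made after seeing the data. Motif and 50-base word searches read the transcript strand alone. Members, lists and groupings were chosen with earlier results of these data known.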

Additional observations from a re-analysis of the deposited data

How the results depend on the processing

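Of 42 values under alternatives, 26 stayed within 1.5 times the reported value and 16 did not. The values are counts or lengths, so none has a direction that could reverse. The 26 include alpha values of the knockdown list that were 0 under every setting. When only the better-scoring 50% of each list was kept, the gamma counts were 10 in CSE and 3 with knockdown. Of these 10, 7 had no overlap, beside 12 of 19 as reported. The 7 are not all among the 12. They include PCDHGB2 and PCDHGA10, which lost their overlap because their knockdown intervals fell below the cut. With 1000 nt as the least width, 5 knockdown intervals of gamma were left. Gamma intervals of the knockdown list without overlap, 0 as reported, were 1 under a reciprocal overlap of 50% (the 662 nt piece of PCDHGB2), 1 at scores of at least 100 (constant exon 3) and 4 where only identical borders counted. In the beta cluster identical borders gave 2 in each direction, the upper 50% by score gave 0 in each direction with 1 interval in each list, and a width over 1000 nt left 1 CSE interval. The alpha count fell to 0 under either of the last 2 limits. No paired analysis was possible because each condition had 1 list. Counts this small limit every share given for the alpha and beta clusters, and depth cannot be judged without reads.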
